A study of Mus musculus with 12 samples.

Results

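Insulin and the insulin-like growth factors act on heart muscle through a small set of receptors, docking proteins and secreted binding proteins. The 10 genes described here are the ligand Igf1, the receptors Insr and Igf1r, the receptor substrates Irs1 and Irs2, the adaptor Grb10 and the binding proteins Igfbp3, Igfbp4, Igfbp5 and Igfbp7. They were listed by name, with no measured value in the rule, but the list was made with earlier results of these data known. They are 10 of the 22915 genes in the table. Each of the 10 was found there and passed the filter on low values.

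Insulin and IGF1 bind receptor tyrosine kinases, INSR and IGF1R, which phosphorylate the docking proteins IRS1 and IRS2. These recruit PI3-kinase, and the Akt kinase that follows drives glucose uptake and protein synthesis and keeps FOXO transcription factors out of the nucleus. GRB10 is an adaptor that binds the active receptors and holds their signal back, while the IGF-binding proteins capture IGF outside the cell and extend, limit or localise its action. In adult cardiomyocytes this pathway is known for its roles in growth, metabolism and survival.

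Primary cardiomyocytes of adult male C57/Bl6 mice, 12 weeks of age, were kept in normoxic culture for 24 h with mLIF, mOSM, hlOSM or, as the control, the same volume of sterile PBS in which the proteins were dissolved. Murine LIF (mLIF) signals through LIFR and murine OSM (mOSM) through OSMR, whereas human-like OSM (hlOSM), a murine OSM that carries the human AB loop, signals through both. The labels give 25 ng/ml for each cytokine and the methods of the study give a lower dose, so that the dose is uncertain. Each condition has 3 libraries, 12 in all, and no source says whether they came from separate preparations of cells, so that p-values measure the spread between these libraries.

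Values are read counts that the authors had normalized between libraries and rounded to whole numbers, and their sums over all genes lay between 2745748 and 2911891 per library. The methods of the study give only an average number of sequenced reads per library. The number behind each library is unknown, and no counting error is attached to single values. A gene was called higher or lower when its two-sided Benjamini-Hochberg adjusted p from limma was under 0.05, on log2(normalized count + 1) and over 13184 genes, those that reached a normalized count of 10 in 3 or more libraries. Averaged over the conditions, the replicate number held almost none of the spread within conditions, as given in the last paragraph. The p-values of this fit, which has no term for the number (no replicate block), are therefore too small. In these bulk samples, fewer cells of a type and less RNA per cell cannot be told apart.

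The 8 cardiomyocyte markers summed to between 48201 and 50117 normalized counts with PBS. Ttn, which encodes the very long protein titin, made between 66.1% and 68.3% of that sum, and the other 7 markers summed to between 15267 and 16967. The sums with PBS were 1188 to 1262 for 8 endothelial, 1842 to 2158 for 8 mural, 2296 to 2526 for 8 fibroblast and 360 to 383 for 8 macrophage and leukocyte markers, none of them scaled by gene length. No marker was at 0, so that RNA of other cells was present in each condition. Without Ttn, the cardiomyocyte sum was 13037 to 14454 with mLIF, 11854 to 13831 with mOSM and 12270 to 12691 with hlOSM, each below the PBS range. Of the 8 markers, 6 were called lower with mLIF, against 4.44% of all genes, 7 with mOSM, against 15.8%, and 7 with hlOSM, against 19.8%. With a replicate block, 4 were called lower with mLIF, while calls of either direction over all genes went from 1307 to 784. Myl2, a ventricular myosin light chain, was not called with any cytokine (limma adjusted p = 0.0681, 0.0900 and 0.0513).

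With mOSM, 2 of the 10 genes were called higher and 3 lower than with PBS, against 15.4% and 15.8% of all genes tested. The higher genes were Igfbp3 and Igfbp4, and the lower genes were Irs1, Igf1 and Igfbp5. With hlOSM, which was compared with the same PBS libraries, 2 were called higher and 4 lower, against 18.2% and 19.8% of all genes. These were the genes called with mOSM and, in addition, Insr. With mLIF, again against these PBS libraries, 2 were called higher and 1 lower, against 5.47% and 4.44% of all genes. Igfbp3 and Irs2 were higher and Irs1 was lower. Over the 10 genes, the median log2 fold changes against PBS were -0.0038, -0.092 and -0.094 for mLIF, mOSM and hlOSM, and over all genes they were 0.00037, -0.0043 and -0.0053. The F test over the 4 conditions called 6 of the 10 (Irs1, Irs2, Igf1, Igfbp3, Igfbp4 and Igfbp5), against 34.2% of all genes.

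**Figure D1:**
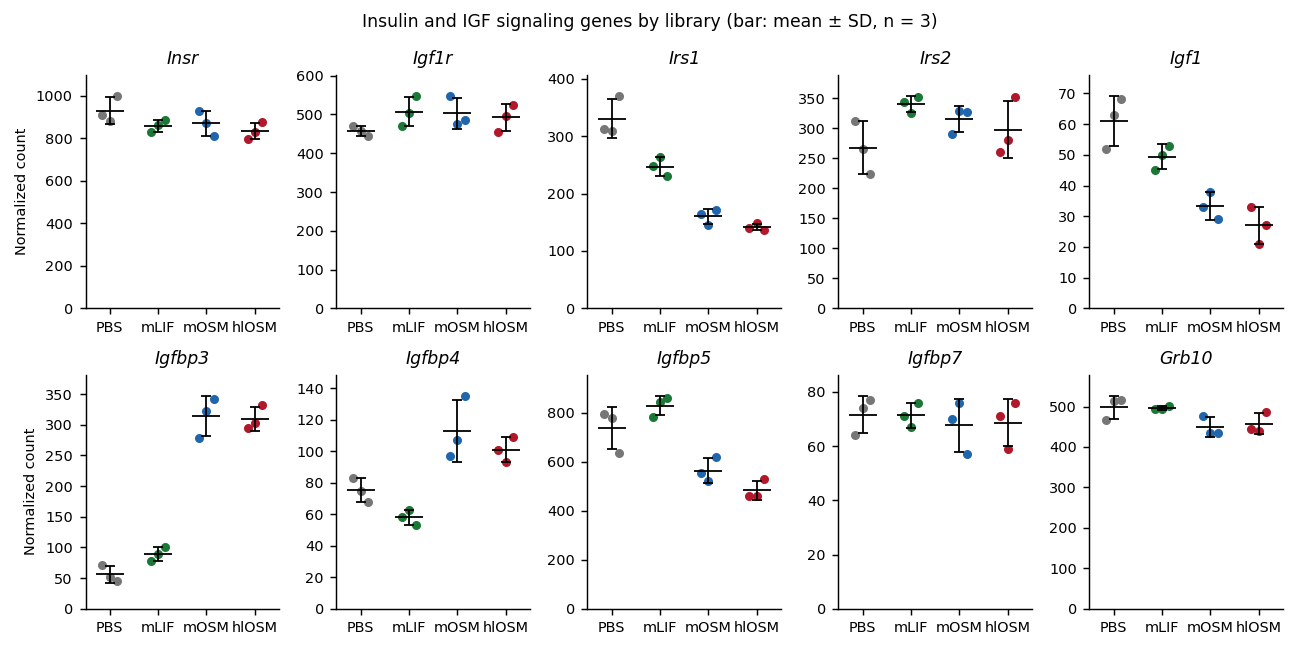
Normalized count of each of the 10 genes (vertical axes, from 0) in the 3 libraries of each condition (points), with the mean and SD (bars, n = 3). Igfbp3 sits between 278 and 342 with mOSM and hlOSM and between 45 and 72 with PBS, Irs1 sits between 308 and 370 with PBS and between 137 and 148 with hlOSM, and Igfbp7 overlaps in all 4 conditions.

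The ligand, Igf1 (ENSMUSG00000020053, chr10:87858265-87937042, plus strand, mm10), is best known as the liver's answer to growth hormone and is also made locally in many tissues. It had normalized counts of 52, 63 and 68 with PBS, of 45, 50 and 53 with mLIF, of 33, 38 and 29 with mOSM and of 33, 21 and 27 with hlOSM. All libraries with mOSM and hlOSM lay below all libraries with PBS and mLIF, while those with mLIF and PBS overlapped. Against PBS, Igf1 fell by 0.85 on the log2 scale with mOSM (SE 0.17, limma adjusted p = 0.000398) and by 1.16 with hlOSM (adjusted p = 8.22e-06). The log2 difference with mLIF was -0.30 (adjusted p = 0.273). Igf1 was the lowest of the 10 genes, with 6.16 ± 0.827 normalized counts per kb of exon with PBS and 2.73 with hlOSM.

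Of the other ligands, Igf2 was at 2 normalized counts or fewer in every library and was not tested, and Ins1 and Ins2 were not among the genes of the table analysed here.

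The receptors Insr and Igf1r were well detected and differed little between conditions. Insr (ENSMUSG00000005534, chr8:3122061-3279617, minus strand) encodes the insulin receptor and had normalized counts of 908, 880 and 999 with PBS, of 829, 861 and 883 with mLIF, of 926, 873 and 808 with mOSM and of 798, 830 and 875 with hlOSM. The libraries with hlOSM lay just below those with PBS, and the other conditions overlapped with PBS. The log2 fold change against PBS was -0.11 with mLIF (limma adjusted p = 0.242), -0.096 with mOSM (adjusted p = 0.242) and -0.15 with hlOSM (SE 0.060, adjusted p = 0.0484). The hlOSM call was lost with no filter, with each of 2 other scalings of the libraries, in the fit with a replicate block, and also when PBS replicate 1 or 3 or hlOSM replicate 1 or 2 was left out, with adjusted p between 0.0537 and 0.248.

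Igf1r (ENSMUSG00000005533, chr7:67952827-68233668, plus strand), the receptor that IGF1 prefers, had normalized counts between 445 and 470 with PBS and between 456 and 548 in the 9 cytokine libraries. The ranges of mLIF and mOSM began just above the highest PBS library and that of hlOSM overlapped with it, and the log2 fold changes were 0.15, 0.13 and 0.10 with mLIF, mOSM and hlOSM (limma adjusted p = 0.181, 0.147 and 0.250). The confidence intervals (95%) of these differences ended at 0.29, 0.28 and 0.25, so that a rise larger than that lies outside them.

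The substrates Irs1 and Irs2, the main docking proteins of both receptors, had changes of opposite sign with each cytokine, and Irs2 was called only with mLIF. Irs1 (ENSMUSG00000055980, chr1:82233101-82291416, minus strand) had normalized counts of 313, 308 and 370 with PBS, of 247, 263 and 230 with mLIF, of 164, 146 and 171 with mOSM and of 140, 148 and 137 with hlOSM. PBS, mLIF and the pair of mOSM and hlOSM formed 3 ranges without overlap, and mOSM and hlOSM overlapped with each other. Irs1 was at 0.749 of its PBS level with mLIF (log2 fold change -0.42, SE 0.083, limma adjusted p = 0.00275), at 0.488 with mOSM (-1.04, adjusted p = 3.13e-09) and at 0.432 with hlOSM (-1.21, adjusted p = 1.72e-10). Exons of Gm9747 on the other strand cover 30.9% of the exonic bases of Irs1. Gm9747 had between 1 and 6 normalized counts, and no source used here says whether reads were counted by strand.

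Irs2 (ENSMUSG00000038894, chr8:10984681-11008458, minus strand) had normalized counts of 312, 265 and 224 with PBS, of 343, 325 and 352 with mLIF, of 290, 329 and 326 with mOSM and of 260, 281 and 351 with hlOSM. Only the libraries with mLIF all lay above those with PBS. The log2 fold change against PBS was 0.36 with mLIF (SE 0.10, limma adjusted p = 0.0282), 0.25 with mOSM (adjusted p = 0.0698) and 0.16 with hlOSM (adjusted p = 0.245). The mLIF call did not hold when PBS replicate 2 or 3 or mLIF replicate 1 or 3 was left out (adjusted p between 0.0641 and 0.177). Without PBS replicate 1, the highest PBS library, Irs2 was called higher with mOSM (0.37, adjusted p = 0.0083) and with hlOSM (0.27, adjusted p = 0.0392) as well.

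Promoter sequences from RefSeq (GRCm38.p6, the 250 bases before the annotated start) were found for 9 of the 10 genes, with 2 starts for Grb10 and none for Insr. The STAT motif TTCNNNGAA and the FOXO motif TGTTTAC, searched on both strands, matched in 0 of these genes, and in 7.02% and 3.17% of the 32851 promoters in the reference. The promoters of Irs1 (chr1:82291440-82291689, minus strand) and Irs2 (chr8:11008930-11009179, minus strand) are printed because these paralogs had changes of opposite sign with each cytokine, both called only with mLIF. Capitals mark the E-box CACGTG, which reads the same on both strands and was looked for after the sequences had been read.
Irs1: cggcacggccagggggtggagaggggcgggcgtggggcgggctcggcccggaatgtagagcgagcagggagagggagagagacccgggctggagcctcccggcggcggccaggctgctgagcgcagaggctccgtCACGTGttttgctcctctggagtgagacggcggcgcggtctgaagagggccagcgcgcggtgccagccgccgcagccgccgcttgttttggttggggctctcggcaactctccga
Irs2: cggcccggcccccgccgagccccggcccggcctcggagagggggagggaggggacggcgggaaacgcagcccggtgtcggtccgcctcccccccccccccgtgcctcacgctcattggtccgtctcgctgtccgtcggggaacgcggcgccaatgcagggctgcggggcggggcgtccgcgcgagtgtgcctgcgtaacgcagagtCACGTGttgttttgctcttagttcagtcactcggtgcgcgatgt
The E-box lies 115 bases before the RefSeq start of Irs1 and 44 bases before that of Irs2, in the run GTCACGTGTT that both windows share. By the gene coordinates given above, neither window adjoins its gene. The Irs1 gene extends to 82291416 and its window runs from 82291440, while the Irs2 gene extends to 11008458 and its window runs from 11008930. In these coordinates the E-box thus lies farther from the start of both genes, most so for Irs2. The windows also share TGTTTTGCTC, and no shared run is longer than these 10 bases. Of all promoters, 6.02% hold the E-box letters in this window, and no other of the 9 genes with a promoter does. A match is a description of the sequence and names no factor that acts there.

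The adaptor Grb10 (ENSMUSG00000020176, chr11:11930508-12038683, minus strand) had normalized counts of 466, 513 and 515 with PBS, of 494, 493 and 502 with mLIF, of 477, 434 and 435 with mOSM and of 445, 439 and 487 with hlOSM. The ranges of all cytokines overlapped with that of PBS. The log2 fold change was -0.0034 with mLIF (limma adjusted p = 0.981), -0.15 with mOSM (adjusted p = 0.0660) and -0.12 with hlOSM (adjusted p = 0.117). With mOSM it was called lower when PBS replicate 1 or mOSM replicate 1 was left out (adjusted p = 0.0337 and 0.0343), and with hlOSM when hlOSM replicate 3 was (adjusted p = 0.0442).

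Among the binding proteins were the largest rise of the 10 genes, that of Igfbp3, and the fall of Igfbp5. Igfbp3 (ENSMUSG00000020427, chr11:7206086-7213923, minus strand) encodes the main carrier of IGFs in blood. It had normalized counts of 72, 52 and 45 with PBS, of 78, 90 and 100 with mLIF, of 278, 322 and 342 with mOSM and of 295, 303 and 332 with hlOSM. The mLIF range began just above the PBS range, and the mOSM and hlOSM ranges lay far above both and overlapped with each other. Igfbp3 rose by 0.68 on the log2 scale with mLIF (SE 0.13, limma adjusted p = 0.00178), and was 5.58-fold higher with mOSM (2.48, adjusted p = 1.89e-12) and 5.52-fold higher with hlOSM (2.47, adjusted p = 1.92e-12).

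Igfbp4 (ENSMUSG00000017493, chr11:99041244-99054392, plus strand), a binding protein that restrains IGF until it is cleaved by the protease PAPP-A, had normalized counts of 83, 75 and 68 with PBS, of 58, 63 and 53 with mLIF, of 97, 107 and 135 with mOSM and of 101, 93 and 109 with hlOSM. The libraries with mLIF all lay below PBS and those with mOSM and hlOSM all above. It rose by 0.57 on the log2 scale with mOSM (SE 0.12, limma adjusted p = 0.000963) and by 0.42 with hlOSM (adjusted p = 0.00884). With mLIF the log2 difference was -0.37 and missed the threshold (adjusted p = 0.0541), which it passed with a filter at 50 (0.0447), after quantile normalization (0.0405) and in a fit of the 6 libraries compared (0.0478).

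Igfbp5 (ENSMUSG00000026185, chr1:72857932-72874884, minus strand), a binding protein abundant in muscle and connective tissue, had normalized counts of 794, 777 and 638 with PBS, of 785, 844 and 859 with mLIF, of 554, 521 and 618 with mOSM and of 462, 460 and 528 with hlOSM. The libraries with mOSM and hlOSM lay below all others, and those with mLIF overlapped with PBS. Igfbp5 fell by 0.38 on the log2 scale with mOSM (SE 0.078, limma adjusted p = 0.00071) and by 0.60 with hlOSM (adjusted p = 2.42e-06), and differed by 0.18 with mLIF (adjusted p = 0.157). Its neighbour Igfbp2, which lies on the other strand and ends 5457 bases away, had 8 normalized counts or fewer in every library.

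Igfbp7 (ENSMUSG00000036256, chr5:77349240-77408041, minus strand), which binds IGF weakly and is known from blood vessel walls, was between 64 and 77 normalized counts with PBS, 67 and 76 under mLIF, 57 and 76 under mOSM and 59 and 76 under hlOSM. All ranges overlapped, and the log2 fold changes were -0.0041, -0.087 and -0.064 (limma adjusted p = 0.988, 0.644 and 0.723). Their intervals (95%) reached from -0.27 to 0.26, from -0.35 to 0.18 and from -0.33 to 0.20. Exons of Polr2b on the other strand, a gene with between 473 and 520 normalized counts, cover 7.0% of the exonic bases of Igfbp7. Whether reads were counted by strand is not known here either, so that the level of Igfbp7 per kb of exon is less certain.

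The last 60 bases before the RefSeq start are printed for the binding proteins that rose with mOSM and hlOSM, Igfbp3 (chr11:7213924-7213983, minus strand) and Igfbp4 (chr11:99041184-99041243, plus strand). Those of Igfbp5, which fell, are printed as well (chr1:72874866-72874925, minus strand). By the gene coordinates given above, the Igfbp5 window reaches into the gene, which extends to 72874884. The windows of Igfbp3 and Igfbp4 adjoin their genes. Capitals mark the letters TATA, merged where matches overlap and looked for after the sequences had been read.
Igfbp3: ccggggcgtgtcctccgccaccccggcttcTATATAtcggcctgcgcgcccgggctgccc
Igfbp4: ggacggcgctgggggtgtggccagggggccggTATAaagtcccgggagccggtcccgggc
Igfbp5: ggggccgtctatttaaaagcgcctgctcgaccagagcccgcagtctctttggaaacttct
The match begins 30 bases before the start in Igfbp3 and 28 bases in Igfbp4, and these letters are not in the window of Igfbp5. That window holds the similar run tatttaaaa, which a search for the exact letters does not find, so that no contrast between the genes is drawn. The letters TATA are thus only a description. They are in the same window of 10.5% of all promoters.

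**Figure D2:**
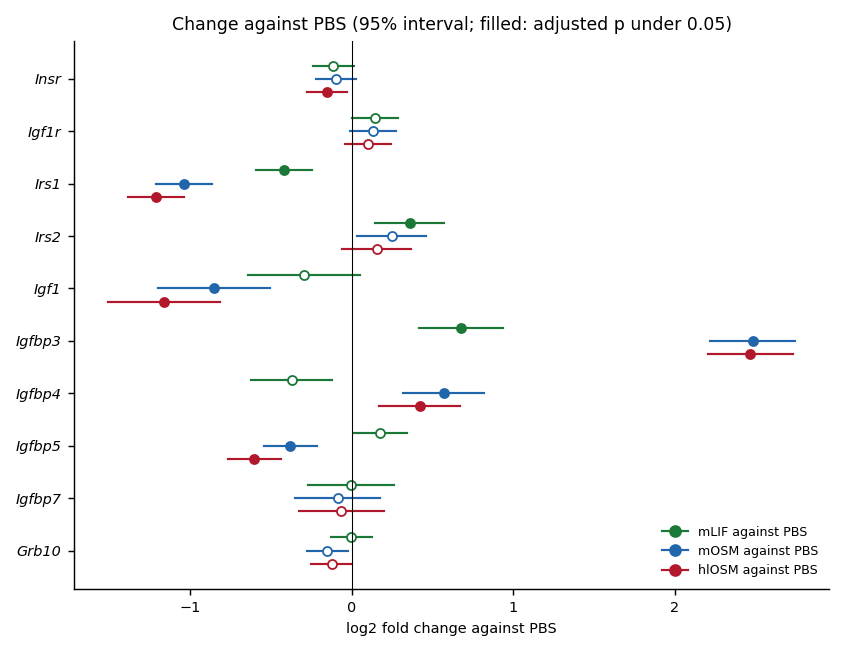
Log2 fold change against PBS (horizontal axis) of the 10 genes with mLIF, mOSM and hlOSM, with 95% intervals of the limma fit (lines) and filled points where the adjusted p is under 0.05. Igfbp3 lies farthest to the right at 2.48 and 2.47 with mOSM and hlOSM, and Irs1 and Igf1 farthest to the left at -1.21 and -1.16 with hlOSM.

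Levels of the 10 genes were compared with each other per kb of exon. With PBS the order was Igfbp5 with 122.6 ± 14.2 normalized counts per kb, Insr with 67.6 ± 4.53, Igfbp7 with 59.3 ± 5.63, Grb10 with 54.8 ± 3.05, Irs2 with 42.2 ± 6.96, Irs1 with 36.1 ± 3.77, Igf1r with 27.3 ± 0.745, Igfbp3 with 18.0 ± 4.48, Igfbp4 with 17.1 ± 1.70 and Igf1 with 6.16 ± 0.827 (SD, n = 3). The libraries of Igfbp7 and Grb10, of Irs2 and Irs1, and of Igfbp3 and Igfbp4 overlapped, so that these neighbours are not separated. With mOSM, Igfbp3 came first with 100.3 normalized counts per kb and overlapped with Igfbp5 at 94.0, and with hlOSM Igfbp3 led with 99.0, above Igfbp5 at 80.5 without overlap. Irs1 went from the sixth place with PBS to the ninth with mOSM and hlOSM, where only Igf1 was lower.

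**Figure D3:**
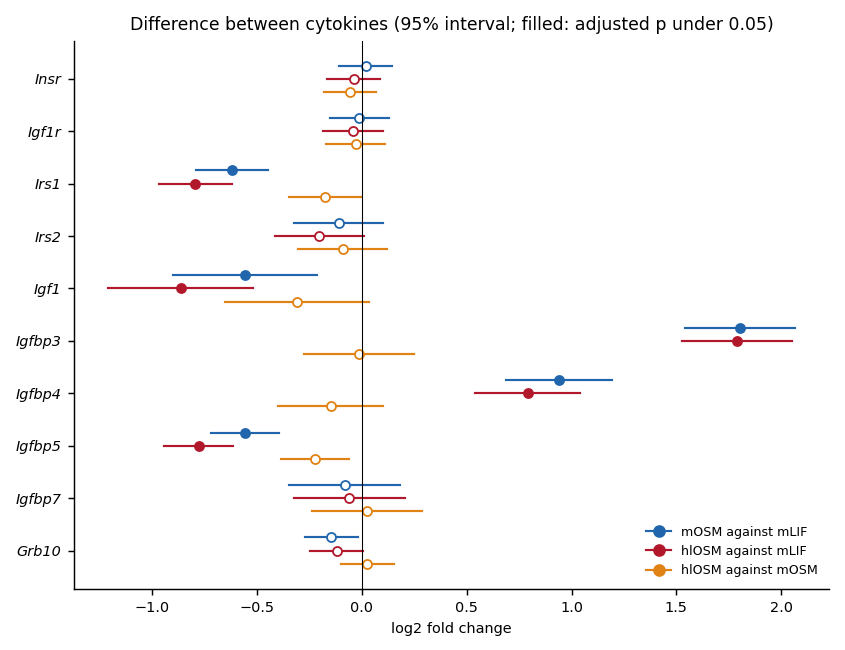
Log2 fold change between cytokines (horizontal axis) of the 10 genes, with 95% intervals of the limma fit (lines) and filled points where the adjusted p is under 0.05. For mOSM and for hlOSM against mLIF, Irs1, Igf1 and Igfbp5 lie left of 0 and Igfbp3 and Igfbp4 right of it, and no point for hlOSM against mOSM is filled.

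The cytokines were next compared with each other, to set OSMR against LIFR and both receptors against each alone. Against mLIF, mOSM had 2 of the 10 genes higher and 3 lower, against 6.05% and 5.76% of all genes tested. Igfbp3 was higher by 1.80 on the log2 scale (SE 0.13, limma adjusted p = 1.08e-09) and Igfbp4 by 0.94 (adjusted p = 8.88e-06). Irs1 fell by 0.62 (adjusted p = 1.46e-05), Igfbp5 by 0.56 (adjusted p = 2.73e-05) and Igf1 by 0.56 (SE 0.17, adjusted p = 0.0294). The Igf1 difference was not past the threshold in the fit with a replicate block (adjusted p = 0.0761) or without mLIF replicate 2 or 3 or mOSM replicate 1 or 3 (0.0719 to 0.123).

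The same genes were called for hlOSM against mLIF, which shares the mLIF libraries, with 2 higher and 3 lower against 7.42% and 9.22% of all genes. Igfbp3 was higher by 1.79 (limma adjusted p = 1.05e-09) and Igfbp4 by 0.79 (adjusted p = 6.07e-05), while Irs1 fell by 0.79 (adjusted p = 3.38e-07), Igfbp5 by 0.78 (adjusted p = 1.99e-07) and Igf1 by 0.87 (adjusted p = 0.000699) on the log2 scale. Irs2, the substrate called higher with mLIF, differed by -0.20 (adjusted p = 0.197), and by -0.33 (adjusted p = 0.0287) without hlOSM replicate 3.

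Between hlOSM and mOSM, proteins that differ in the AB loop and so in the use of LIFR, limma called 0 of the 10 genes, against 0.106% of all genes. An unadjusted limma p under 0.05 was found for 987 of the 13184 genes tested and for 2 of the 10 (Irs1 and Igfbp5). The log2 difference was -0.18 for Irs1 (interval at 95% from -0.35 to -0.0030, adjusted p = 0.661) and -0.22 for Igfbp5 (from -0.39 to -0.060, adjusted p = 0.472). For Igf1 it was -0.31 (from -0.65 to 0.036, adjusted p = 0.706) and for Igfbp3 -0.015 (from -0.28 to 0.25, adjusted p = 0.990). These intervals leave room for differences of that size, and a p that misses the threshold does not show that the proteins act alike.

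Whether the change from mOSM to hlOSM differed from the change from PBS to mLIF was tested as an interaction. Limma called 0 of the 10 genes, against 0.167% of all genes. An unadjusted p under 0.05 was found for 1521 of the 13184 genes tested and for 3 of the 10. These were Igfbp3 (log2 interaction -0.69, SE 0.18, adjusted p = 0.115), Igfbp5 (-0.40, SE 0.11, adjusted p = 0.145) and Irs2 (-0.45, SE 0.15, adjusted p = 0.211). In each of them the mean with mLIF lay above that with PBS, while the mean with hlOSM lay below that with mOSM. Without PBS replicate 1, Igfbp3 and Irs2 were past the threshold (adjusted p = 0.00376 and 0.0495), and without hlOSM replicate 3, Irs2 and Igfbp5 were (0.0368 and 0.0436).

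The 60 other genes of the pathway were taken from a written list, also made with earlier results of these data known, and counted by role. Of these, 54 were in the table and 46 passed the filter. Insrr, Igfbp1, Irs3 and Irs4 were, like Ins1 and Ins2, not among the genes of the table analysed here, and Igf2, Igfbp2, Igfbp6, Igfals, Pappa2, Grb7, Sh2b2 and Foxo6 were below the filter. Against PBS, mLIF had 3 of the 46 higher and 5 lower (5.47% and 4.44% of all genes), mOSM 8 higher and 13 lower (15.4% and 15.8%), and hlOSM 9 higher and 15 lower (18.2% and 19.8%). The median log2 fold change was 6.45e-05, -0.016 and -0.052, against 0.00037, -0.0043 and -0.0053 over all genes. Between hlOSM and mOSM, limma called 0 of the 46. The total of 8 with mLIF was 5 in the fit with a replicate block, 4 and 2 without PBS replicate 2 or 3, and 2, 3 and 2 without mLIF replicate 1, 2 or 3.

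The largest rise on this list was that of Ddit4, a stress-induced inhibitor of mTOR complex 1, at 30.7 ± 1.53 normalized counts with PBS, 66.0 ± 2.00 with mOSM and 63.0 ± 4.58 with hlOSM (SD, n = 3). Its log2 fold change was 1.08 with mOSM (limma adjusted p = 7.83e-07) and 1.01 with hlOSM (adjusted p = 1.42e-06), and 0.38 with mLIF (adjusted p = 0.0584). Phosphatases that act on the insulin receptor rose as well. Ptprf gained 0.46, 0.49 and 0.58 log2 units with mLIF, mOSM and hlOSM (adjusted p = 0.00528, 0.000576 and 8.52e-05), and Ptpn1 by 0.44 and 0.33 with mOSM and hlOSM (adjusted p = 0.000103 and 0.00164). With mLIF, Pik3r1, the p85 alpha regulatory subunit of PI3-kinase, rose by 0.27 (adjusted p = 0.0236), and Rictor, a subunit of mTOR complex 2, by 0.18 (adjusted p = 0.0464, and 0.0914 with a replicate block).

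Grb14, an adaptor that, like Grb10, binds and inhibits the insulin receptor, fell from 506.3 ± 58.9 normalized counts with PBS to 383.7 ± 16.8 with mLIF, 306.3 ± 20.6 with mOSM and 292.7 ± 24.8 with hlOSM. This was the largest fall past the threshold with each cytokine, of 0.39 (limma adjusted p = 0.00298), 0.72 (adjusted p = 3.18e-07) and 0.79 (adjusted p = 6.59e-08) on the log2 scale. Stc2, a secreted inhibitor of the protease PAPP-A, fell by 0.56 with mOSM (adjusted p = 0.0115) and by 0.74 with hlOSM (adjusted p = 0.000997). Pik3r3, a further regulatory subunit of PI3-kinase, fell by 0.61 with mOSM (adjusted p = 0.0036), and Trib3, a pseudokinase that binds Akt, by 0.57 with hlOSM (adjusted p = 0.00176). With mLIF, the transcription factor Foxo3 fell by 0.28 (adjusted p = 0.0235) and Htra1, a protease that cleaves binding proteins, by 0.26 (adjusted p = 0.0177).

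The counts by role stand against 15.4% of all genes called higher and 15.8% lower with mOSM, and 18.2% and 19.8% with hlOSM. The adaptors and brakes of the receptors had 4 of 10 tested genes higher and 3 lower with mOSM, and 5 higher and 3 lower with hlOSM. PI3-kinase and Akt had 2 of 14 higher and 4 lower with mOSM, and 2 higher and 5 lower with hlOSM. The mTOR group had 2 of 12 higher and 1 lower with mOSM, and 1 higher and 2 lower with hlOSM. FOXO and GSK3 had 0 of 5 higher and 2 lower with mOSM, and 1 higher and 2 lower with hlOSM. The other binding proteins and the proteins that act on them had 0 of 4 higher and 2 lower with each. With a replicate block, calls over all genes went from 4120 to 3330 with mOSM and from 5002 to 4120 with hlOSM. The adaptors and brakes then had 2 lower with mOSM. PI3-kinase and Akt then had 1 higher and 3 lower with mOSM, and 4 lower with hlOSM. The block count was 1 for mTOR genes lower with hlOSM and 0 for FOXO and GSK3 genes higher with hlOSM. Igf2r, the receptor that clears IGF2 and the single tested gene of its group, was called lower with each cytokine and had log2 fold changes of -0.17, -0.30 and -0.38 with mLIF, mOSM and hlOSM (limma adjusted p = 0.0291, 7.04e-05 and 3.10e-06). With a replicate block its call with mLIF was lost (adjusted p = 0.0638).

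**Figure D4:**
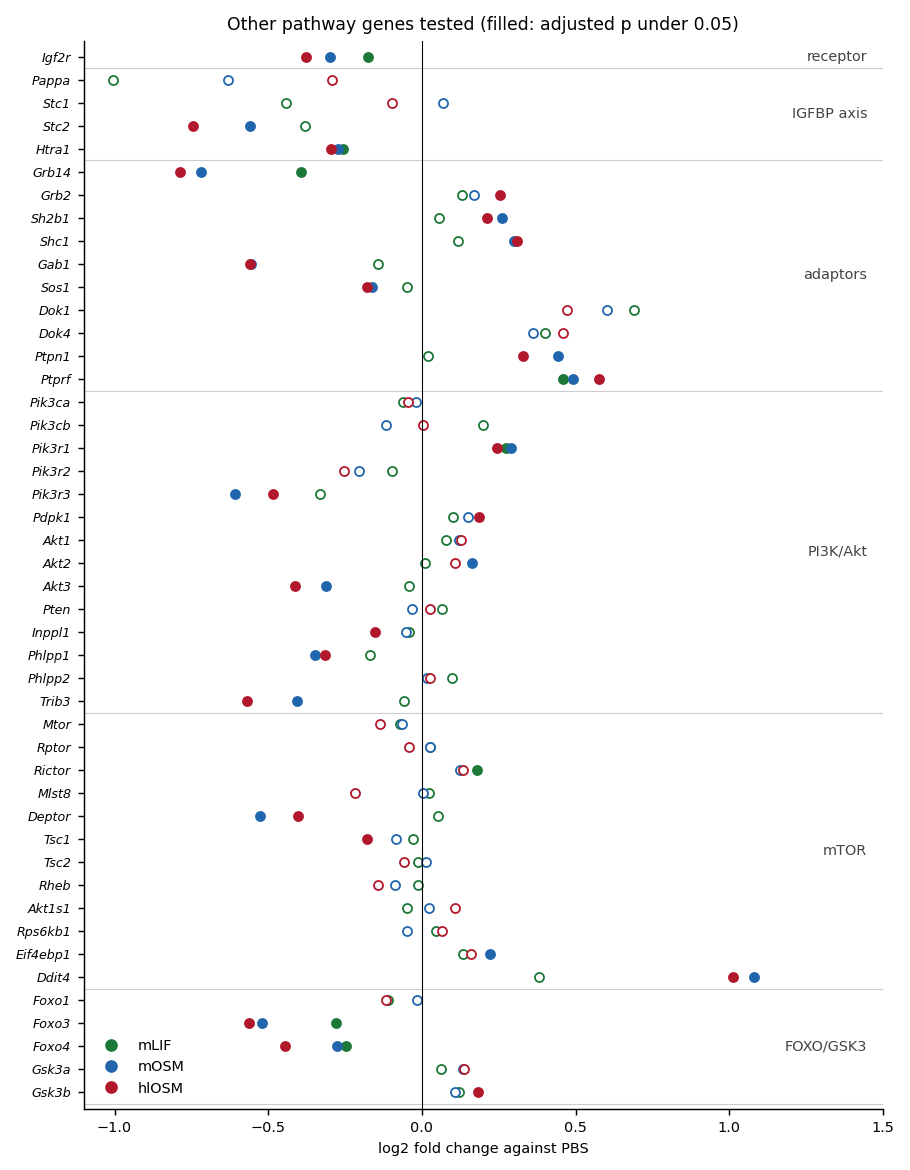
Log2 fold change against PBS (horizontal axis) of the 46 other pathway genes tested, by role, with mLIF, mOSM and hlOSM. Filled points have a limma adjusted p under 0.05. Ddit4 lies farthest right among them, at 1.08 with mOSM and 1.01 with hlOSM, and Grb14 farthest left, at -0.79 with hlOSM.

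Several of the 10 genes are also expressed by other cells of the heart, and markers of these cells moved with the cytokines. The summed mural markers were between 1842 and 2158 normalized counts with PBS, 1664 and 1720 under mLIF, 1352 and 1448 under mOSM, and 1227 and 1317 under hlOSM. A large part of this sum came from Abcc9. It had between 858 and 1017 with PBS, 753 and 803 under mLIF, 668 and 711 under mOSM, and 588 and 682 under hlOSM. Which cells its RNA came from was not tested. Of the 8 mural markers, 1 was called lower under mLIF, 6 under mOSM and 7 under hlOSM, against 4.44%, 15.8% and 19.8% of all genes. The endothelial sum was between 1471 and 1700 with mOSM and between 1477 and 1590 with hlOSM, above the 1188 to 1262 with PBS and the 1201 to 1266 with mLIF, and 6 of 8 of these markers were called higher with either, against 15.4% and 18.2% of all genes. The fibroblast sum overlapped with that of PBS with mOSM (2459 to 2885) and hlOSM (2307 to 2540) and lay below it with mLIF (2110 to 2251). With hlOSM, 3 of the 8 fibroblast markers were called higher and 5 lower, against 18.2% and 19.8% of all genes. In the fit with a replicate block, 2 fibroblast and 5 endothelial markers were called higher with hlOSM. The macrophage and leukocyte sum was between 389 and 442 with mOSM and between 361 and 434 with hlOSM. Of the 6 of these markers tested, Cd68 alone was called higher with each cytokine, against 5.47%, 15.4% and 18.2% of all genes. Its mean was 53.7 normalized counts with PBS, 125 with mOSM and 132 with hlOSM. Lyz2 and Mrc1 were called lower with hlOSM, against 19.8% of all genes, Mrc1 not with a replicate block. The part of these cells in the changes of Igf1, Igfbp3, Igfbp4 and Igfbp5 was not tested.

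For the 3 genes with the smallest p in the F test, the protein-coding genes with the most similar pattern over the 12 libraries were listed among 8493 whose mean normalized count was 50 or more. For Igfbp3 these were Pros1, Il4ra and Cpxm1 (Pearson r = 0.994 for each), for Irs1 they included Pygb and Bambi (r = 0.991 and 0.990), and for Igfbp5 Pdlim3, Pgm5 and F830016B08Rik (r = 0.963, 0.962 and 0.961). The 12 points share the 4 conditions and the scaling of the libraries, so that these values describe the pattern only.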

How the data were processed

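RNA of cultured murine cardiomyocytes was sequenced as single-end reads from 3 libraries each of PBS, mLIF, mOSM and hlOSM, and the sample titles gave the condition and replicate number of each library. The study's methods and the submitters' processing notes name FastQC, Trimmomatic, STAR 2.7.7a and featureCounts 1.6.5 with mm10. Reads that met several genes or aligned to several places were left out, which lowers genes that overlap another. The normalized counts deposited by the authors are whole-number scores, and the normalization between libraries is not given in the sources used here, so that no count model was fitted. The deposited totals are not the number of reads.

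A single limma 3.58.1 fit in R 4.3.3 (eBayes, with the prior variance as a trend of the mean) of log2(normalized count + 1) over 12 libraries gave all comparisons, the F test and the interaction. The methods name no test for single genes. Steps were tested on simulated data with independent noise in each library and no effect of the replicate number. Such data cannot show whether the p-values hold for the deposited values. The choices varied were the pseudocount (0.1 or 5), the filter (none, or 50), the scaling (trimmed mean of M-values, or quantile), robust variance estimates, a fit limited to the conditions compared, a replicate block, a stricter threshold of 0.01 for counts, and leaving out each library in turn.

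The 10 genes, the pathway and marker lists and the motifs were chosen with earlier results of these data known. Of the pathway list, up to 3 rises and 3 falls past the threshold with each cytokine are named by size, and genes not measured. For the 3 members with the smallest F test p, the 3 most similar genes are named, except 1 that is not reported here. Gene coordinates are those of the table. Of its 22915 genes, 22876 were found in GENCODE M21, and 22676 of these had the same position. Exonic lengths come from that annotation and promoter sequences from RefSeq.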

Additional observations from a re-analysis of the deposited data

How the results depend on the processing

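Over 960 single-gene values recomputed under the alternatives, 901 kept their direction and side of the threshold, 13 came to pass it, 17 no longer passed it and 29 changed sign, none of these last in a gene called for that comparison. The changed calls of Insr, Irs2, Igf1, Igfbp4 and Grb10 and of the interaction stand beside those results, and the cause was not tested. The number of the 10 genes called for the interaction was 0 and ranged from 0 to 2 with single libraries left out. The number of pathway genes called with mLIF was 8, and became 5 with the replicate number as a block, 2 at an adjusted p under 0.01, and 2 to 8 with single libraries left out.

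Grb10 with mLIF against PBS turned to 0.023 with quantile normalization. With single libraries left out, the log2 fold change changed sign for Igfbp7 with mLIF (-0.082 to 0.049), mOSM (-0.17 to 0.029) and hlOSM (-0.14 to 0.039) against PBS, mOSM (-0.17 to 0.034) and hlOSM (-0.14 to 0.044) against mLIF and hlOSM against mOSM (-0.094 to 0.13). The same held for Grb10 with mLIF against PBS (-0.050 to 0.022) and hlOSM against mOSM (-0.020 to 0.071), and for Insr with mOSM against mLIF (-0.030 to 0.068). It also held for Igf1r with mOSM (-0.076 to 0.043) and hlOSM (-0.095 to 0.013) against mLIF and hlOSM against mOSM (-0.076 to 0.033), and for Igfbp3 with hlOSM against mOSM (-0.10 to 0.049).

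Libraries share replicate numbers across conditions, and nothing says what a number stands for. Over 6626 genes with a mean of at least 100, the share of within-condition variance that went with the number was 0.0368% (25% would be the mean if the number had no effect), and the sources used here name no step that would take such an effect out. Deviations of same-numbered libraries from their condition means correlated between -0.44 and -0.11 in the 6 pairs of conditions. Values without any difference between the numbers give negative correlations by construction, so that this check cannot show whether the numbers pair the libraries. Because the deposited values hold almost no difference between the numbers, a fit without a replicate block counts too many independent deviations. Its p-values are therefore too small. With the replicate block, calls among the 10 genes went from 6 to 5 with hlOSM against PBS, from 5 to 4 with mOSM against mLIF and from 6 to 5 in the F test, where Irs2 had an adjusted p of 0.0437 without and 0.0602 with it. The block moved no other call among the 10 genes, and those of Irs1 and Igfbp3 with each cytokine held. Among pathway genes it left 18 of 21 calls with mOSM and 21 of 24 with hlOSM. Over all 13184 genes tested, the block took the calls against PBS from 1307 to 784 with mLIF. They went from 4120 to 3330 with mOSM and from 5002 to 4120 with hlOSM.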
